A study of Mus musculus with 23 samples.

Results

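Expression of 10 transcription factor genes of the primitive streak and mesendoderm was followed in Kdm2b fl/fl mouse embryonic stem cells (ESCs). The genes are T (Brachyury), Eomes, Mixl1, Gsc, Mesp1, Evx1, Lhx1, Cdx2, Tbx6 and Hand1, taken by name from the 23369 gene names of the deposited RNA-seq tables, in which all 10 were found. PolyA+ RNA was sequenced from 3 replicates labelled untreated and 3 labelled tamoxifen treated. All 6 libraries come from KDM2Bfl/fl ES cells. The paper made the floxed allele in MS12 ESCs and raised the ES cell lines from a mating of mice that carried it. Both Kdm2b alleles of these cells carry loxP sites around the exon for most of the ZF-CxxC domain. The cells stably express a tamoxifen-inducible Cre recombinase. The treated cells received 4-hydroxy tamoxifen for 72 hr, at 800 nM in the sample labels and 800 µM in the series text, to remove that exon. Cells were grown in serum and LIF on mouse embryonic fibroblast feeders and were settled overnight without feeders before use. No library of tamoxifen-treated cells without the floxed alleles was analysed here, so loss of the domain and exposure to tamoxifen and Cre activity cannot be told apart.

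The primitive streak is the site at which epiblast cells of the gastrulating embryo become mesoderm and definitive endoderm, and mesendoderm is the shared progenitor state of these layers. Wnt, Nodal, BMP and FGF signals induce it, and T-box, homeobox and basic helix-loop-helix (bHLH) transcription factors carry out the programme. In ESCs most of these genes are silent or nearly so and are well-known targets of polycomb repressive complexes. KDM2B reads nonmethylated CG dinucleotides (CpGs) through its ZF-CxxC domain and brings the PCGF1/PRC1 complex to CpG islands, and the libraries ask how expression differs once that contact is removed.

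Group membership follows the sample labels. The deposited file names give the opposite reading for all 6 libraries, and under that reading every difference below changes its sign and keeps its size. The targeted gene does not settle this, because its value covers the whole gene and not the floxed exon. Kdm2b had 21.5 to 27.7 FPKM in the libraries labelled untreated and 19.9 to 25.04 FPKM in those labelled tamoxifen. FPKM is the number of fragments of a gene scaled by its length in kilobases and by the mapped fragments of the library.

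Because KDM2B binds CpGs, the promoters of the genes are shown first. The RefSeq promoter table, in the GRCm38.p6 build, holds 300 bases per promoter, from 250 before to 50 after the start of the gene, and 8 of the 10 genes are in it. Mixl1 and Hand1 are not. The promoters of Eomes, Cdx2 and T are shown, the genes found there that reached the levels tested below. They read as follows, 5′ to 3′ on the strand of the gene, with every CpG in capitals.
Eomes, chr9:118477939-118478238, plus strand: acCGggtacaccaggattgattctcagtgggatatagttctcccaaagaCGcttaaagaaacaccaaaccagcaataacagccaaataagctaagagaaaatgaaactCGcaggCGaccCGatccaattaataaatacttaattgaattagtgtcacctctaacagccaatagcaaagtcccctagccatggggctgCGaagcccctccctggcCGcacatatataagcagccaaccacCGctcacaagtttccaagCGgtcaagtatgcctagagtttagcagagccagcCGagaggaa
Cdx2, chr5:147307200-147307499, minus strand: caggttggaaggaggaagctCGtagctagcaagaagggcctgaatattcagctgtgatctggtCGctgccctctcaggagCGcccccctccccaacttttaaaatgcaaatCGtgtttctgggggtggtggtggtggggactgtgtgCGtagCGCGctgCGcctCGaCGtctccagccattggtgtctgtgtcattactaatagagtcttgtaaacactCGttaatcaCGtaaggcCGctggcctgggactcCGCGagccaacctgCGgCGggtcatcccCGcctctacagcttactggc
T, chr17:8434173-8434472, plus strand: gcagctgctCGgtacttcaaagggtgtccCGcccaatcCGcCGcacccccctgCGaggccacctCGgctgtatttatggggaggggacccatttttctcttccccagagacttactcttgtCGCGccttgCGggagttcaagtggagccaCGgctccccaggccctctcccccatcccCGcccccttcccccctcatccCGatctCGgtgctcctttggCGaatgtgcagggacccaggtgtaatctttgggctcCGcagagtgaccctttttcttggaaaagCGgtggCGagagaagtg
The Eomes promoter held 10 CpGs, more than 56.5% of the 32851 promoters in the table. The Cdx2 promoter held 18 and the T promoter 17, more than 70.3% and 68.6% of all promoters. Across all promoters the median was 7 CpGs, with quartiles of 3 and 20. Lhx1 with 31 and Gsc with 25 were the richest of the 8, and Evx1 held 12. Tbx6 held 7 and Mesp1 4, with a ratio of observed to expected CpGs of 0.29 and 0.17 against 0.61 to 0.96 in the other 6.

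**Figure D1:**
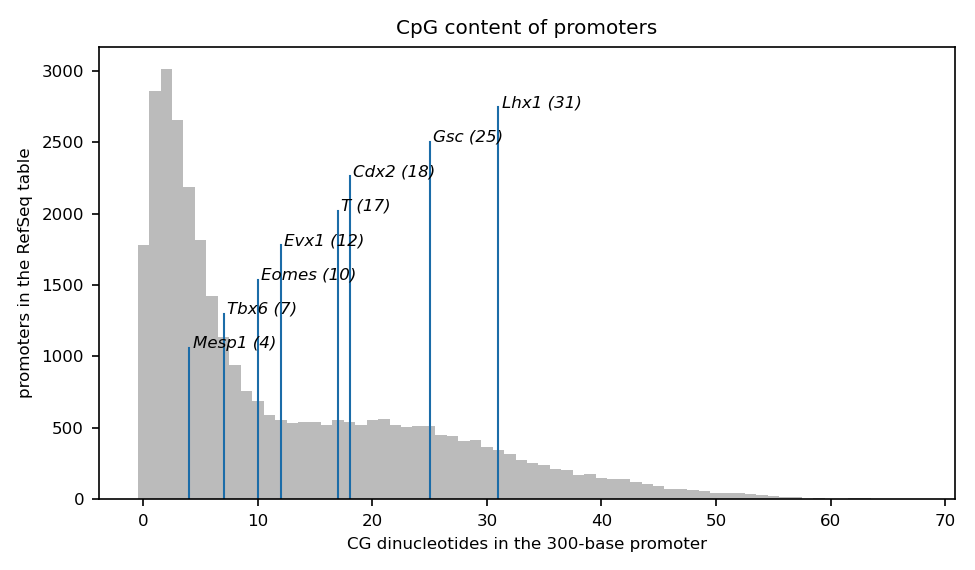
Number of promoters in the RefSeq table (y axis) by their number of CG dinucleotides in 300 bases (x axis), with the 8 genes found there marked by vertical lines whose heights carry no value. Mesp1 with 4 lies below and Tbx6 with 7 lies at the median of all promoters, while Gsc with 25 and Lhx1 with 31 lie above the upper quartile of 20.

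Short motifs of the streak-inducing pathways were searched on both strands of these promoters. A TCF/LEF match (CTTTGAT or CTTTGAA), the motif of the nuclear effectors of Wnt signalling, occurred once in the T promoter and at 2 positions in the Mesp1 promoter, and 8.65% of all promoters hold at least 1. Mesp1 also held 1 T-box match (AGGTGTGA), which 1.28% of promoters hold. A SMAD match (CAGACA) was present once each in Cdx2 and Evx1, against 21.0% of promoters. No FOXH1 match (TGTGNATT) was present in the 8 promoters, and 3.6% of all promoters hold one. The 4 motifs share no full match with each other, and a match describes letters only.

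The 10 genes spanned levels from 0 to 16.5 FPKM. In the untreated-labelled libraries Hand1 was the highest with a mean of 11.6 FPKM, followed by Eomes with 3.04, Cdx2 with 1.26, T with 0.781, Gsc with 0.623, Mixl1 with 0.537 and Tbx6 with 0.452. Lhx1, Evx1 and Mesp1 followed with means of 0.0561, 0.0548 and 0.0369 FPKM. Only the steps from Hand1 to Eomes, from Eomes to Cdx2 and from Tbx6 to Lhx1 separated the 3 replicates of neighbouring genes, and the other neighbours overlapped. In the tamoxifen-labelled libraries T stood at 1.13 FPKM and Cdx2 at 0.445 FPKM, so that T lay above Cdx2 without overlap between their replicates, whereas in the untreated-labelled libraries the ranges of these genes overlapped. As bulk values, these levels cannot tell fewer expressing cells from less RNA per cell.

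Read counts are not in the tables, and each FPKM comes with a confidence interval that reflects the fragments behind it. That interval reached 0 in all 6 libraries for Mesp1, in 4 for Lhx1, in 3 for Evx1 and in 1 for Gsc, and in none for the other 6 genes. Between 11571 and 11980 rows per library had at least 1 FPKM, and the FPKM summed to between 549379.4 and 1045707.3. Libraries that share a number departed from their group means in the same way (correlations across genes of 0.506 to 0.605). Each comparison of tested genes is therefore given without a block and with the number as one. Only genes with at least 0.5 FPKM in at least 3 of the 6 libraries were tested, 12997 in all. T, Eomes, Cdx2 and Hand1 passed this filter. Cdx2 passed it only through its 3 untreated-labelled libraries. The other genes are given by their values in each replicate number, and their permutation tests take no account of that number.

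**Figure D2:**
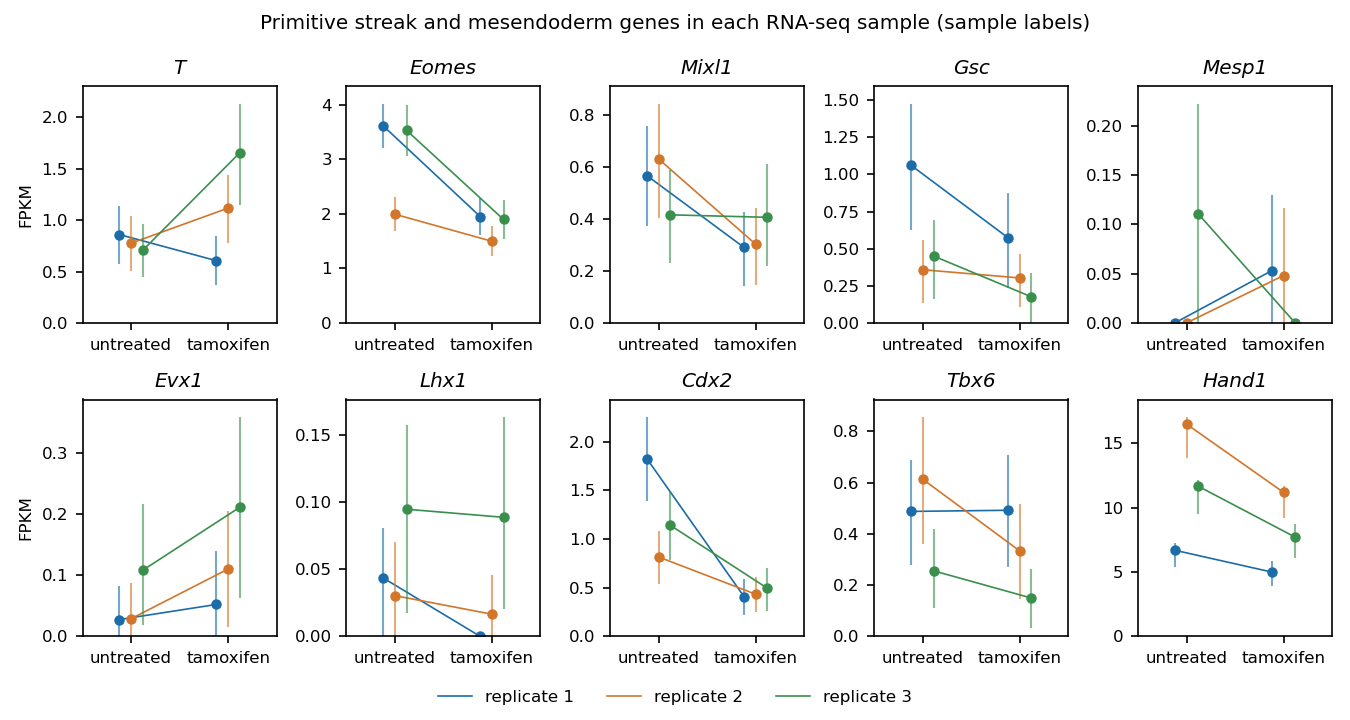
FPKM (y axis, from 0, with its own scale in each panel) of the 10 genes in the libraries labelled untreated and tamoxifen (x axis). Points are single libraries, lines join libraries with the same replicate number, and vertical bars are the confidence intervals deposited with each value. All 3 lines slope down for Eomes, Mixl1, Gsc, Lhx1, Cdx2 and Hand1, and all 3 slope up for Evx1.

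The T-box genes did not move together. Eomes was lower in the tamoxifen-labelled libraries in all 3 replicate numbers, T was lower in replicate 1 and higher in replicates 2 and 3, and Tbx6 was mixed. T encodes Brachyury, a T-box activator of the streak and notochord and a direct Wnt target. Eomes encodes the T-box factor that epiblast cells need to leave the streak as mesoderm or to form definitive endoderm, and it also acts in the trophoblast. Tbx6 encodes the T-box factor of the paraxial mesoderm.

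Eomes occupies bases 118387307 to 118395250 of chromosome 9, plus strand, in mm9, the build of the files. Its FPKM was 3.61, 1.99 and 3.53 in untreated-labelled replicates 1, 2 and 3, and 1.95, 1.496 and 1.89 in the tamoxifen-labelled ones. The groups did not overlap, but the lowest untreated-labelled value, with a deposited interval of 1.68 to 2.30 FPKM, lay close to the highest tamoxifen-labelled value, with an interval of 1.62 to 2.28 FPKM. The group means were 3.04 ± 0.912 and 1.78 ± 0.247 FPKM (SD, n = 3), a ratio of 1.71 in favour of the untreated-labelled cells. On the log2(FPKM + 0.1) scale, which understates changes of low genes, Eomes differed by −0.70 (standard error 0.31, adjusted p = 0.999 by limma with Benjamini-Hochberg adjustment over all genes tested). Adding the block reduced the standard error to 0.17, and limma gave an adjusted p of 0.0377. Pairs of libraries with the numbers 1, 2 and 3 differed by −0.86, −0.39 and −0.86. The call with the block was lost with quantile normalization added, where the limma adjusted p was 0.0668, without replicate 2 (0.117) and without replicate 3 (0.131).

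T (chromosome 17, bases 8627288 to 8635361, plus strand) had 0.860, 0.776 and 0.706 FPKM in untreated-labelled replicates 1 to 3 and 0.606, 1.12 and 1.66 FPKM in the tamoxifen-labelled ones. The untreated-labelled values lay close together, and the tamoxifen-labelled ones spread from below to above them. The group means were 0.781 ± 0.0772 and 1.13 ± 0.525 FPKM (SD, n = 3). The log2 difference of 0.39 had a standard error of 0.39 without and 0.30 with the block, with limma adjusted p = 0.999 and 0.427, so it lay within the spread between replicates. Within replicate numbers it was −0.44, 0.47 and 1.12. The value rests on replicate 3, since without it the difference with the block was 0.02. Without replicate 1 it was 0.80 (limma adjusted p = 0.0632 with the block).

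Tbx6 (chromosome 7, bases 133924997 to 133929062, plus strand) stayed below the filter. It had 0.488, 0.613 and 0.255 FPKM in the untreated-labelled and 0.492, 0.334 and 0.150 FPKM in the tamoxifen-labelled replicates 1 to 3. The ranges overlapped (exact permutation test on log2(FPKM + 0.1), two-sided, p = 0.6, where 0.1 is the smallest that 3 against 3 allow).

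Of the 5 homeobox genes, Cdx2, Gsc, Mixl1 and Lhx1 were lower in the tamoxifen-labelled libraries in every replicate number, and Evx1 was higher in every one. Of all gene names above 0 FPKM in any library, 23.8% were lower and 20.6% higher in every number. In replicate 3 the log2 difference was only −0.03 for Mixl1 and −0.045 for Lhx1. Only Cdx2 reached the levels that were tested. Cdx2 encodes a caudal-type factor of the trophectoderm and of the posterior body axis, and Mixl1 a paired-type factor of the streak that acts in endoderm formation. Gsc encodes goosecoid, a paired-type repressor of the anterior streak and organizer, and Lhx1 a LIM factor of the anterior mesendoderm and node. Evx1 encodes an even-skipped-type factor of the posterior streak.

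Cdx2 occupies bases 148112476 to 148118825 of chromosome 5, minus strand. It had FPKM values of 1.82, 0.816 and 1.14 in untreated-labelled replicates 1 to 3 and 0.407, 0.433 and 0.494 in the tamoxifen-labelled ones. The groups did not overlap, and the tamoxifen-labelled values were tightly grouped. The means were 1.26 ± 0.514 and 0.445 ± 0.0448 FPKM (SD, n = 3), a ratio of 2.83, and the largest ratio between group means in this direction among the 10 genes. The ratio within a replicate number was 4.47, 1.89 and 2.31. On the log2 scale Cdx2 differed by −1.26 (standard error 0.37, limma adjusted p = 0.606). Adding the block reduced the standard error to 0.28, with an adjusted p of 0.0312 by limma. This call was lost without replicate 1 (limma adjusted p = 0.0633) and without replicate 2 (0.119), and a gene that passes the filter through its high group alone had to be lower in the other.

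Mixl1 (chromosome 1, bases 182623179 to 182627165, minus strand) had 0.566, 0.630 and 0.416 FPKM in the untreated-labelled libraries and 0.290, 0.302 and 0.406 FPKM in the tamoxifen-labelled ones. The groups were apart by only the gap from 0.416 to 0.406 FPKM, both from replicate 3, whose deposited intervals overlap almost fully. Its mean log2 difference was −0.55, with −0.77, −0.86 and −0.03 within replicates 1 to 3 (exact permutation test, two-sided, p = 0.1, the smallest possible).

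Gsc (chromosome 12, bases 105709419 to 105711446, minus strand) had 1.06, 0.358 and 0.449 FPKM in the untreated-labelled and 0.574, 0.303 and 0.176 FPKM in the tamoxifen-labelled replicates. Replicate 1 was the highest in both groups and the groups overlapped. The mean log2 difference was −0.65 (exact permutation test, two-sided, p = 0.4), and every replicate number was lower, by −0.79, −0.19 and −0.99.

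Evx1 and Lhx1 were close to the limit of detection. Evx1 (chromosome 6, bases 52263492 to 52268372, plus strand) had 0.0276, 0.0289 and 0.108 FPKM in the untreated-labelled and 0.0522, 0.110 and 0.211 FPKM in the tamoxifen-labelled libraries (exact permutation test, two-sided, p = 0.2). It was higher under the tamoxifen label within each replicate number, by 0.26, 0.70 and 0.58 on the log2(FPKM + 0.1) scale, while its groups overlapped. The locus of 5730457N03Rik overlaps that of Evx1 in the files, and this gene was listed at 0 to 0.071 FPKM. Lhx1 (chromosome 11, bases 84332881 to 84339036, minus strand) had 0.0434, 0.0303 and 0.0945 FPKM in the untreated-labelled libraries. It was listed at 0, 0.0165 and 0.0885 FPKM in the tamoxifen-labelled ones, with overlapping groups (exact permutation test, two-sided, p = 0.5).

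Of the bHLH genes, Hand1 was the most highly expressed of the 10 and was lower in all 3 tamoxifen-labelled libraries than in their untreated-labelled counterparts, while Mesp1 was barely detected. Hand1 encodes a factor of the extraembryonic and lateral mesoderm, the heart and trophoblast giant cells. Mesp1 encodes an early factor of the nascent mesoderm that gives rise to the heart.

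Hand1 (chromosome 11, bases 57642215 to 57645649, minus strand) had 6.69, 16.5 and 11.7 FPKM in untreated-labelled replicates 1 to 3 and 4.99, 11.2 and 7.71 FPKM in the tamoxifen-labelled ones. The groups overlapped because replicate 1 was low and replicate 2 high under both labels. The means were 11.6 ± 4.90 and 7.96 ± 3.10 FPKM (SD, n = 3), a ratio of 1.46, and the ratio within a number was even, at 1.34, 1.47 and 1.51. The log2 difference of −0.52 had a standard error of 0.39 without the block (limma adjusted p = 0.999) and 0.11 with it (limma adjusted p = 0.0253). The call was lost without replicate 2 (limma adjusted p = 0.185) and without replicate 3 (0.109). The summed FPKM of the feeder fibroblast markers was also lowest in replicate 1 under both labels, though not that of every marker, and their part in the level of Hand1 was not tested.

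Mesp1 (chromosome 7, bases 86937127 to 86938476, minus strand) was listed at 0 in untreated-labelled replicates 1 and 2 and at 0.111 FPKM in replicate 3. In the tamoxifen-labelled libraries it was listed at 0.0531 and 0.0481 FPKM in replicates 1 and 2 and at 0 in replicate 3. No difference was detectable at these levels.

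**Figure D3:**
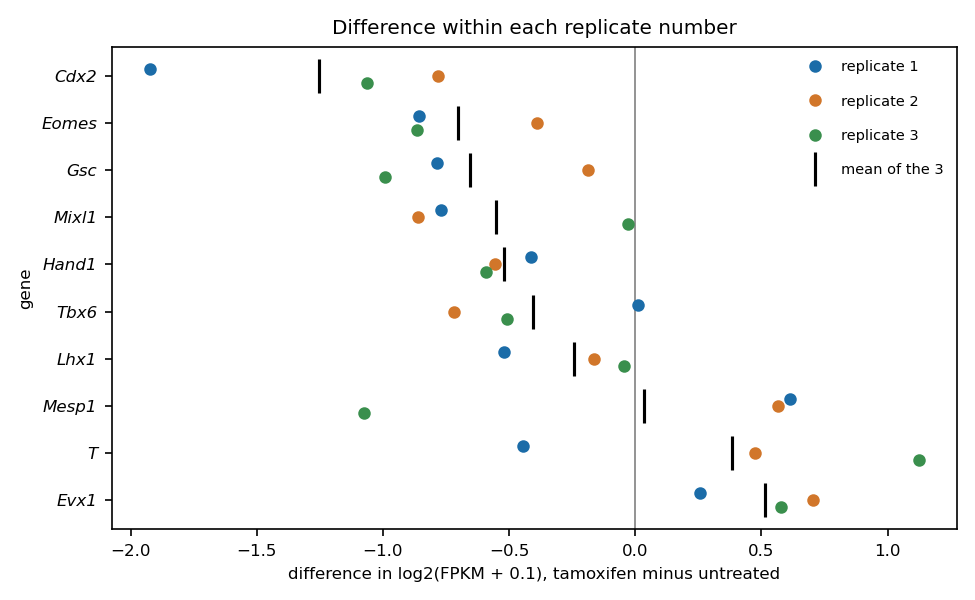
Difference in log2(FPKM + 0.1) between the tamoxifen-labelled and the untreated-labelled library of the same replicate number (x axis) for each gene (y axis), with points for replicates 1 to 3 and a bar at their mean. Cdx2 lies farthest to the left with a mean of −1.26, Hand1 has the tightest points, and T, Mesp1 and Tbx6 have points on both sides of 0.

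The counts over the 10 genes are given beside those over all genes. Without the block, limma called 0 of the 4 tested genes, where 0.0231% of all 12997 tested genes were called higher, 0.00769% lower and 0.0308% in either direction, and at an unadjusted p below 0.05 it gave 241 higher and 382 lower genes, Cdx2 among the latter. With the block, 3 of the 4 tested genes (Eomes, Cdx2 and Hand1) were called lower and 0 higher, beside 6.06% of all tested genes called lower, 4.33% called higher and 10.4% called in either direction. Cdx2 had to differ once it passed the filter, so this count is no support for a shared direction. Without the filter all 10 genes could be fitted, and 0 were called either without or with the block. That fit called 0.00428% of 23363 genes, 1 gene and higher, without the block, where 483 genes were higher and 674 lower at an unadjusted p below 0.05. It called 0.0% with the block, where 1841 genes were higher and 2016 lower at an unadjusted p below 0.05. Over the 10 genes the groups did not overlap for 3 (Eomes, Mixl1 and Cdx2, all lower), beside 5.38% lower and 3.72% higher of the 18843 gene names above 0 FPKM in any library. Among the genes tested these shares were 5.4% and 3.09%. Lower in all 3 replicate numbers were 6 of the 10, beside 23.8% of those gene names, and higher in all 3 was 1, beside 20.6%. The median log2 difference was −0.46 over the 10 genes and −0.02 over the 18843 gene names.

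Neighbouring genes of the streak programme were described from lists of inducing signals, antagonists, Wnt feedback targets and early mesoderm and endoderm genes. Without the block, limma called 0 genes of these lists in either direction. The calls below are those with the block, and the median log2 difference over all genes tested was −0.02. Of the 16 list genes called with the block, marker lists included, only Lefty2 and Col4a1 were still called without replicate 2, and none without the filter. With quantile normalization added to the block 11 were still called, and Chrd, Gata4, Wnt5a, Tfap2c and Klf2 were not. With median-ratio scaling added 14 were still called, and Chrd and Klf2 were not.

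Among 15 tested genes of 16 streak-inducing signals, 1 was lower and 1 higher, beside 6.06% lower and 4.33% higher of all genes tested, shares that 1 of 15 does not stand apart from. The median log2 difference was −0.18. Nodal, the TGF-β ligand that induces and patterns the streak, fell from 33.5, 63.6 and 34.7 to 20.0, 38.0 and 25.8 FPKM in replicates 1 to 3 (log2 difference −0.63, standard error 0.10, limma adjusted p = 0.0135 with the block). Every replicate number was lower, although the groups overlapped. Fgf8, the FGF that streak cells need to migrate away, rose from 2.17, 1.14 and 0.521 to 3.35, 2.89 and 1.84 FPKM (log2 difference 1.18, standard error 0.22, limma adjusted p = 0.02 with the block). The most highly expressed members of the list were Tdgf1, the Nodal coreceptor, with 403 and 365 FPKM in the group means, Ctnnb1, which encodes β-catenin, with 244.2 and 244.1 FPKM, and Fgf4 with 63.4 and 68.0 FPKM. None of these 3 passed the test. Without replicate 2 the limma adjusted p with the block was 0.119 for Nodal and 0.16 for Fgf8.

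Of 7 tested genes among 9 antagonists, 1 was higher and 1 lower, beside 10.4% of all genes tested called in either direction, and the median was 0.33. Lefty2, a feedback inhibitor and target of Nodal, rose from a mean of 86.2 ± 64.1 to 125 ± 64.2 FPKM (SD, n = 3), with a log2 difference of 0.67 (standard error 0.13, limma adjusted p = 0.0204 with the block). Chrd, the BMP antagonist chordin, fell by 0.85 on the log2 scale (with the block, limma gave an adjusted p of 0.0346). Without replicate 3 the adjusted p of Lefty2 was 0.0515, and without replicate 2 that of Chrd was 0.26, both by limma with the block. Lefty1 had 114 and 132 FPKM and Sfrp1 16.3 and 20.7 FPKM in the group means and did not pass the test.

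Of 8 tested genes among 10 Wnt feedback targets 0 were called without or with the block, and their median was −0.29. Axin2, a negative regulator and target of the Wnt pathway, had 4.60, 3.99 and 4.64 FPKM in untreated-labelled replicates 1 to 3 and 2.25, 2.92 and 3.63 FPKM in the tamoxifen-labelled ones, without overlap (log2 difference −0.59, limma adjusted p = 0.0603 with the block). It was called lower with the block and a pseudocount of 1 (limma adjusted p = 0.0468), and Notum was called lower with the block without replicate 1 (0.0165). Axin2 was named after its values were seen. Tcf7, Notum and Lef1 were the highest of the list, with mean levels of 32.4 and 28.9, 15.3 and 11.7, and 6.71 and 7.07 FPKM in the untreated-labelled and tamoxifen-labelled libraries.

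In the list of 28 early mesoderm and endoderm genes, 20 were tested, 6 were lower and 0 higher with the block, beside 6.06% lower and 4.33% higher of all genes tested, and the median was −0.39. The 6 were Tbx20, Dll1, Gata4, Gata6, Twist1 and Wnt5a. Dll1, the Notch ligand of the paraxial mesoderm, fell from 5.92, 13.1 and 10.2 to 1.63, 3.22 and 4.66 FPKM (log2 difference −1.63, standard error 0.18, limma adjusted p = 0.00418 with the block), and its groups did not overlap. Tbx20, a T-box factor of the heart, fell from 1.85, 1.93 and 2.66 to 0.299, 0.546 and 1.07 FPKM (log2 difference −1.73, standard error 0.24, limma adjusted p = 0.00885 with the block), also without overlap. Gata6 and Gata4, zinc-finger factors of endoderm and cardiac mesoderm, fell by 1.43 and 0.85, Twist1, a bHLH factor of mesoderm and mesenchyme, by 0.84 and Wnt5a by 0.82 on the log2 scale. Wnt5a was lowest in replicate 1 under both labels, with 0.962 and 0.396 FPKM. The summed FPKM of the feeder fibroblast markers was lowest there too, and the part of feeder cells in the levels of these genes was not tested. Gata6 and Tal1 passed the filter only through their untreated-labelled libraries, so that their direction was fixed by the filter. The median of the list includes both. Tal1 was not called and is named for this alone. None of the 6 was called without replicate 2, where limma with the block gave adjusted p of 0.0596 for Dll1, 0.0883 for Tbx20, 0.0924 for Gata6, 0.0922 for Twist1, 0.181 for Gata4 and 0.214 for Wnt5a. The call was also lost for Gata4 without replicate 1 (0.0669) and for Wnt5a without replicate 3 (0.0502). Besides Dll1, the highest of the list were Tbx3 and Fgf17, which did not pass the test.

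**Figure D4:**
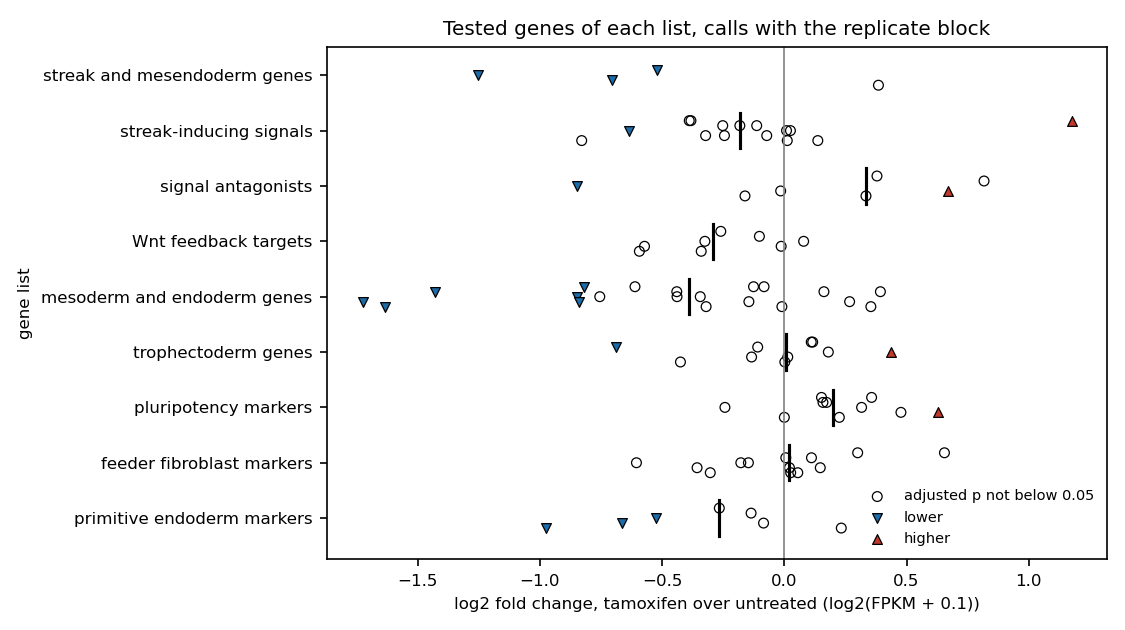
Log2 fold change on the log2(FPKM + 0.1) scale, tamoxifen-labelled over untreated-labelled (x axis), of each tested gene in the gene lists (y axis). Filled triangles passed limma with the replicate block and open circles did not, and bars are the medians of the lists, drawn for all but the streak and mesendoderm genes. The mesoderm and endoderm list holds 6 filled triangles on the lower side, among them Gata6, whose direction the filter fixed, where 6.06% of all genes tested were called lower.

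Markers of the cells that the cultures could hold were read from the same libraries. All 10 pluripotency markers were expressed, with sums of 2332 to 3834 FPKM in the untreated-labelled and 2966 to 5441 FPKM in the tamoxifen-labelled libraries. Dppa5a, Pou5f1 and Utf1 were the highest. With the block 1 of the 10 was called, beside 10.4% of all genes tested called in either direction. This was Klf2, with a log2 difference of 0.63 (limma adjusted p = 0.0318, and 0.197 without replicate 2). Of 14 feeder fibroblast markers 11 had a mean of at least 1 FPKM, led by S100a4, Col1a1 and Col1a2. Their sum was 97.1, 239.9 and 227.9 FPKM in untreated-labelled replicates 1 to 3 and 93.2, 199.4 and 208.9 FPKM in the tamoxifen-labelled ones. Of 13 tested feeder markers 0 were called without or with the block, beside 0.0308% and 10.4% of all genes tested. Replicate 1 had the lowest sum under both labels.

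Primitive endoderm, which shares Gata4 and Gata6 with the mesoderm and endoderm list, had 7 of 11 markers at a mean of at least 1 FPKM, with Sparc, Lamb1 and Col4a1 the highest. The sum of the list was 319.5 to 584.6 FPKM in the untreated-labelled and 322.9 to 443.8 FPKM in the tamoxifen-labelled libraries. With the block 3 of the 7 tested were lower and 0 higher, beside 6.06% lower and 4.33% higher of all genes tested. Col4a1, Lama1 and Lamb1 were the 3, with log2 differences of −0.97, −0.66 and −0.52 (limma adjusted p = 0.00334, 0.0237 and 0.027). The markers not called were Dab2, which differed by 0.23 in the other direction, and Amn, Sparc and Pth1r, which differed by −0.085, −0.14 and −0.27. Without replicate 2 the limma adjusted p was 0.197 for Lama1 and 0.17 for Lamb1. Ttr was listed at 0 in all 6 libraries, Afp in 4 of them, and Sox7 had a mean of 0.285 FPKM, defining markers named for their low values. Trophectoderm genes were read because Cdx2, Eomes and Hand1 are also used there. Of the 10 tested, 1 was higher and 1 lower with the block, beside 4.33% higher and 6.06% lower of all genes tested. From these shares 1 of 10 does not stand apart. Tfap2c was higher by 0.44 and Esx1 lower by 0.69 (limma adjusted p = 0.0412 and 0.0132 with the block). Without replicate 2 these were 0.232 and 0.116, and without replicate 3 that of Tfap2c was 0.112. Krt18, Krt8 and Tfap2c were the highest of that list, whose sum was 236.5 to 309.2 FPKM in the untreated-labelled and 194.4 to 353.3 FPKM in the tamoxifen-labelled libraries, and Elf5, a defining marker, had a mean of 0.127 FPKM. Plet1 is not named in the tables. The part of such cells in the levels of Eomes, Cdx2 and Hand1 was not tested.

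Among all genes tested, the profiles most like that of T over the 6 libraries were those of Vrtn, Bcl9 and Irgm1, with Pearson correlations of 0.988, 0.976 and 0.969 on the log2(FPKM + 0.1) scale. For Eomes they were Rela, Gnas and Abhd4, with 0.995, 0.989 and 0.981. For Cdx2 they were Satb1, Fam184a and Epb4.1l1, with 0.99, 0.989 and 0.987. These are the highest of 12997 genes over only 6 libraries that share treatment and replicate number, and they are given as a description. Between the genes themselves Eomes and Cdx2 were most alike, with a correlation of 0.904, and Evx1 and Tbx6 most opposed, with −0.967, where Evx1 rests on values whose intervals often reach 0.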

How the data were processed

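RNA-seq libraries of Kdm2b fl/fl ESCs, 3 labelled untreated and 3 tamoxifen treated, were analysed, and the 17 ChIP-seq and input samples were not analysed here. The authors aligned 51-bp paired-end reads of directional libraries to mm9 with TopHat2 and deposited FPKM values and their confidence bounds per gene, obtained with Cuffdiff 2.1.1 on refGene models. The notes give the TopHat2 version as 0.5. Rows of a gene name were summed, and 6 names with a failed status were left out. Genes with at least 0.5 FPKM in at least 3 of 6 samples entered linear models of log2(FPKM + 0.1). These were fitted by limma 3.58.1 (R 4.3.3) with a variance trend, Benjamini-Hochberg adjustment and a threshold of 0.05. The fits were also run on simulated data to check the code, which does not bear on the calls given here. Limma p-values set a mean difference against the spread between samples of a group. With the block that spread is what remains after the replicate numbers are fitted. Other steps used Python 3.11.15 with pandas 2.3.3 and scipy 1.17.1. The labels give the same replicate numbers to both groups, and all 3 same-numbered pairs correlated in their deviations from group means (0.544, 0.605 and 0.506), so the number was also fitted as a block. The methods call the replicates biological triplicates. Start coordinates were converted to 1-based. Strands come from GENCODE vM1 on NCBIM37, the mm9 assembly. Named genes are the 10 genes, called or highest genes of the fixed lists, Kdm2b, overlapping genes and the 3 nearest profiles of the first 3 tested genes. Alternatives were other pseudocounts, filters and scalings, the highest row per name, no variance trend and leaving out each replicate. The genes and lists were chosen with earlier results of these data known.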

Additional observations from a re-analysis of the deposited data

How the results depend on the processing

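The direction of T, Eomes, Cdx2 and Hand1 held in every alternative computed for each, with log2 differences of 0.02 to 0.80 for T, −0.97 to −0.52 for Eomes, −1.51 to −0.62 for Cdx2 and −0.87 to −0.22 for Hand1. The filter fixed the direction of Cdx2, so its constancy is no support. Adding the block alone, changing the filter or leaving out the variance trend cannot change a log2 difference. Taking the highest row per name cannot either, as each of these genes has 1 row. All these alternatives do not test direction. Of the genes below the filter only Mesp1 changed sign, to −0.13 as the log2 ratio of group means. Calls depended on the replicate block. Without the block 3 genes were higher and 1 lower of all genes, and 0 of every list. With the block 563 were higher and 787 lower. Of the 4 tested streak and mesendoderm genes 3 were then lower, Cdx2 among them. Of the 90 other tested list genes 4 were higher and 12 lower. With quantile normalization added to the block these counts were 558 and 586, 2, and 2 and 10. With median-ratio scaling added they were 461 and 629, 3, and 3 and 11, and with a pseudocount of 1 added 659 and 931, 3, and 4 and 14 (both added after seeing the data). With the block and no filter, also added, they were 0 and 0. Leaving out 1 replicate number from the fit with the block gave 36 to 744 higher and 43 to 1011 lower genes (359 and 478 without replicate 3), 0 to 2 lower streak and mesendoderm genes (0 without replicate 2), and 1 to 6 higher and 1 to 13 lower list genes. Leaving out 1 library without the block gave 2 to 5 higher and 0 to 7 lower genes. Without the block, a pseudocount of 1 gave 0 lower genes, no filter gave 1 higher and 0 lower, and at least 1 FPKM in all 6 samples gave 0 and 0. Counts at an unadjusted p below 0.05 were 247 and 410, 483 and 674, and 138 and 272 in the same order. The causes were not tested. TPM scaling moved the median of all genes from −0.02 to 0.08. Read counts are not in the tables, so depth is unknown, and the deposited intervals reach 0 in at least 3 of the 6 libraries for Mesp1, Lhx1 and Evx1.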
